A study of Homo sapiens with 10 samples.

Results

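The ORC2BP8 line, an ORC2 mutant of the human colorectal carcinoma line HCT116, was compared with the HCT116 line labelled wild type (WT) on Affymetrix expression arrays. The arrays were chosen by their titles: 2 arrays titled ORC2BP8 and 2 titled WT, 4 of the 10 arrays of the series. The other 6 arrays hold 2 ORC1 mutant lines, ORC1B14 and ORC1BP32, and a further ORC2 mutant line, ORC2B2, with 2 arrays each. All 5 lines are HCT116 cells, untreated and grown at 37 °C in 5% CO2. The labels do not give the kind of mutation in ORC2BP8, how it was made, or whether the line is a single clone. Arrays of a line are titled biological replicates 1 and 2. Nothing states that they came from separate cultures, so a p-value here reflects only how far the 2 arrays of a line lie apart, and that distance may be technical. The comparison asks which genes are expressed at a different level in the ORC2BP8 line than in the WT line. With 1 line on each side, the ORC2 mutation and any other difference between the lines cannot be told apart.

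The origin recognition complex (ORC) binds DNA at replication origins. Together with CDC6 and CDT1 it loads the MCM helicase there, a step called origin licensing, and ORC2 is a core subunit. The loaded helicase is activated in S phase, and the E2F transcription factors switch on many of the genes for licensing, DNA synthesis and mitosis in cycling cells. HCT116 cells carry an activating mutation of CTNNB1, the gene of beta-catenin, so the WNT pathway is already active in them.

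Of 53617 probe sets, 16098 were named with 1 gene symbol each, for 14884 genes, and 10797 genes passed a filter on dim probe sets and were tested. The median over all probe sets was 3.95 and 3.87 on the ORC2BP8 arrays and 3.96 and 3.87 on the WT arrays (log2). Replicate arrays correlated at 0.9841 in WT and 0.9787 in ORC2BP8. Arrays of different lines were as close, with 0.9845 between WT and ORC2BP8 in replicate 1 and 0.9774 in replicate 2. ORC2BP8 replicate 2 was closer to ORC1B14 replicate 2 (0.9853) than to ORC2BP8 replicate 1. The correlations thus do not set replicates of a line apart from arrays of other lines. None of the 6 ORC genes was named (0 of 6), so the mutated gene is not analysed here and does not check the labels. Of 10 named colon epithelium markers, 8 (EPCAM, KRT8, KRT18, KRT19, CDX1, CDX2, VIL1 and GPA33) lay above the array median on all 4 arrays, and CEACAM5 and TSPAN8 lay below it on all 4. The mean level of these 10 markers was 6.23 and 5.95 in WT and 6.27 and 6.18 in ORC2BP8. The fibroblast genes DCN and LUM and the blood cell genes CD14 and LYZ lay below the array median on all 4 arrays. THY1, CD4, CD8A, CD68 and SPI1 lay above it on all 4, and the mean level of the 6 named blood markers was 4.87 and 4.64 in WT and 4.89 and 5.01 in ORC2BP8. Of 8 named liver and kidney markers 5 (APOA1, TTR, PAX2, PAX8 and LHX1) lay above it on all 4 and 3 below. Of 9 lung and breast markers 3 (SFTPB, SFTPC and GATA3) lay above it on all 4 and 2 below. A level above the array median is therefore by itself no mark of a tissue. These are bulk samples, in which fewer cells expressing a gene and less RNA per cell cannot be told apart.

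In ORC2BP8, 27 genes were higher than in WT (0.25% of the genes tested) and 74 were lower (0.685%), at a limma adjusted p under 0.05. The higher genes were led by the keratin-associated gene KRTAP2-3, the microRNA locus MIR4527, the TGF-beta inhibitor SMAD7, the keratin KRT80 and the heparan sulfatase SULF2. SYT1, a sensor of calcium in vesicle release, and the adhesion receptor ADGRF1 were the lowest, and 6 target genes of the stress factors ATF4 and CHOP were among those that fell. A difference of 1 on the log2 scale is a 2-fold change, and 86 of the 101 called genes (0.935% of those tested) differed by at least 2-fold. In 89 of the 101, the difference from WT had the same sign in all 3 other mutant lines, and in the rest it did not in at least 1 of them. Sign alone was counted, so values close to 0 are included, such as 0.005 for PCOLCE2 in ORC1BP32. The same count over all genes tested was not made, so the 89 are not shown to have changed in every line. All lines are set against the same 2 WT arrays, and how far those arrays set a shared direction was not tested. The ORC2BP8 and WT arrays did not overlap in any of the 101, and with 2 arrays a line they also did not overlap in 4894 of the 10797 genes tested (45.3%), so a gap between the lines is by itself no sign of a change. Without adjustment 1572 genes had a p under 0.05 (14.6%), 800 of them higher (7.41%) and 772 lower (7.15%), and over all genes tested the median difference was 0.03. Of all genes tested 5939 lay above 0 (55%) and 4857 below, the background for the counts of gene lists that follow. For 7 of the called genes, both arrays of the dimmer line lay below the array median, so the size of the difference is uncertain. They are MIR4527 and SYK, dim in WT, and CRNDE, SCG2, MIR616, LINC00707 and ANKRD22, dim in ORC2BP8. Among the 4 arrays compared, these 7 reached the array median on those of the brighter line alone. MIR4527, SYK, MIR616 and ANKRD22 reached it on no other array of the series, so a difference was a condition of their being tested. The fit took its error from all 10 arrays, and with the 4 compared arrays alone it called 18 genes, 5 higher and 13 lower. Of the named genes tested under every setting, KRTAP2-3, SMAD7, KRT80, SULF2, TRIB3, ASNS, AARS1, MLKL, CNTN1, SLFN5, SCG2, ADGRF1 and SYT1 kept their calls there.

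**Figure D1:**
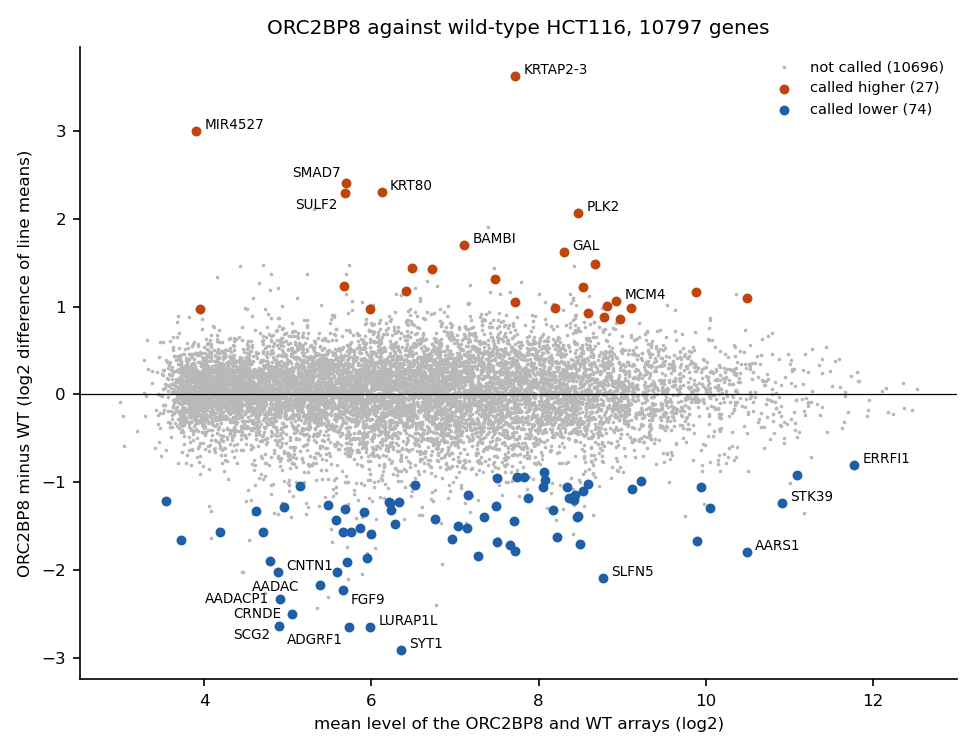
Each point is 1 of the 10797 genes tested, with its mean level over the 2 ORC2BP8 and 2 WT arrays (log2, horizontal) and the difference of the line means (log2, vertical). The 27 genes called higher (orange) reach 3.63 (KRTAP2-3), and the 74 called lower (blue) reach -2.91 (SYT1).

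Keratins form the intermediate filaments of epithelial cells, and keratin-associated proteins cross-link them in hair. KRTAP2-3 stood at 5.80 and 6.01 on the WT arrays and 9.66 and 9.40 on the ORC2BP8 arrays (log2 level). It rose by 3.63 (SE 0.41, limma adjusted p = 0.00516), which is 12.4-fold. In ORC1B14, ORC1BP32 and ORC2B2, KRTAP2-3 stood at 1.96, 1.16 and 3.24 against the same WT arrays. KRT80, a keratin of differentiating epithelia, was at 4.91 and 5.03 in WT and 7.37 and 7.19 in ORC2BP8, and rose by 2.31 (SE 0.36, adjusted p = 0.0144). Both pairs of arrays lie far apart, and the spread within a line (SD 0.15 and 0.19 for KRTAP2-3, 0.08 and 0.13 for KRT80, n = 2) is small beside the gap. Of 23 keratin and keratin-associated genes tested, these 2 were called higher (0.25% of all genes tested were), 17 lay above 0 (55% of all) and the median difference was 0.31. KRTAP3-1 (1.47, adjusted p = 0.0588) and KRT23 (1.37) had the next largest values without a call, while KRT8 stood at -0.30 and KRTAP2-4, a family member close to KRTAP2-3, at -0.70. Members of this family have similar sequences, so probes may not separate them fully. KRTAP2-3 stayed called whichever of the 10 arrays was left out, and KRT80 lost its call without any WT or ORC2BP8 array (highest adjusted p 0.0972).

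**Figure D2:**
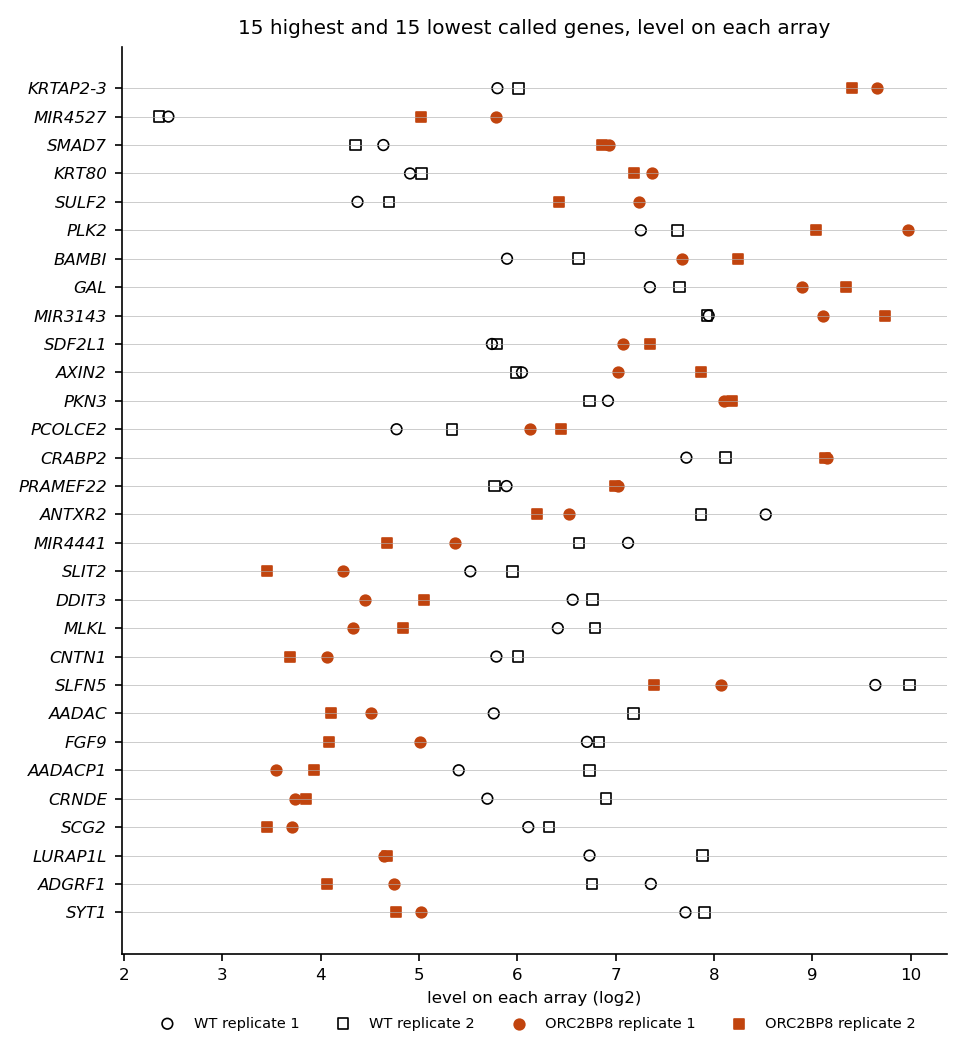
Log2 level on each of the 4 arrays for the 15 highest and 15 lowest called genes, with open symbols for WT, filled symbols for ORC2BP8, circles for replicate 1 and squares for replicate 2. In every gene shown the open and filled symbols are separate, from KRTAP2-3 (6.01 or less in WT, 9.40 or more in ORC2BP8) to SYT1 (7.71 or more in WT, 5.03 or less in ORC2BP8).

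SMAD7, an inhibitory SMAD that blocks TGF-beta receptors, was at 4.64 and 4.35 in WT and 6.93 and 6.87 in ORC2BP8. It rose by 2.40 (SE 0.28, limma adjusted p = 0.00539). BAMBI, a decoy receptor for TGF-beta and BMP ligands, was at 5.90 and 6.62 in WT and 7.68 and 8.25 in ORC2BP8, and rose by 1.70 (SE 0.28, adjusted p = 0.0206). Neither gene's groups overlap, and the BAMBI arrays of replicate 2 were the higher of each pair. Of 22 tested genes of the TGF-beta and BMP list these 2 were called, 14 lay above 0, and the median was 0.14. SMAD6 (1.25), THBS1 (1.165) and BMP4 (1.14) had the next largest values, with adjusted p of 0.0843, 0.216 and 0.0843. The receptor-regulated SMAD2 (-0.18), SMAD3 (-0.21) and SMAD1 (-0.36) and the shared partner SMAD4 (-0.14) lay below 0 without a call. SMAD7 lost its call without WT replicate 2 (0.0577), and BAMBI without WT replicate 1 or ORC2BP8 replicate 2 (highest 0.190).

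AXIN2, a scaffold of the complex that destroys beta-catenin and a direct WNT target, was at 6.05 and 5.99 in WT and 7.02 and 7.87 in ORC2BP8. It rose by 1.43 (SE 0.28, limma adjusted p = 0.0468), with most of its spread between the ORC2BP8 arrays. AXIN2 stood at 1.30, 1.24 and 1.86 against WT in ORC1B14, ORC1BP32 and ORC2B2. FGF9, a growth factor gene that is also a WNT target, fell from 6.71 and 6.83 to 5.01 and 4.08, by 2.22 (SE 0.37, adjusted p = 0.0210). In the same 3 other lines FGF9 stood at -2.59, -2.11 and -1.64. Of 20 tested genes of the WNT list, AXIN2 and BAMBI were called higher and FGF9 lower, and 12 lay above 0 with a median of 0.16. Other feedback inhibitors of the pathway stood at 0.73 (NOTUM), 0.64 (ZNRF3), 0.16 (RNF43) and -0.36 (NKD1), and VSNL1 (-1.35), SOX4 (-0.91) and SOX9 (-0.74) were the lowest after FGF9. None of these had a call. AXIN2 lost its call without 7 of the 10 arrays (highest 0.309). FGF9 lost its call without either WT array or ORC2BP8 replicate 2 (highest 0.190).

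SULF2 removes sulfate groups from heparan sulfate, the coreceptor of FGF and WNT ligands outside the cell. It was at 4.38 and 4.70 in WT and 7.24 and 6.42 in ORC2BP8, and rose by 2.30 (SE 0.31, limma adjusted p = 0.00955). A second, dimmer probe set for SULF2 also passed the filter and did not follow. Its means were 3.79 in WT and 3.76 in ORC2BP8, both below the array medians. Averaged over both probe sets the gene kept its call at 1.14. Without either WT array the call was lost (highest adjusted p 0.0615). In the MAPK and FGF list of 32 tested genes, SULF2 and FGF9 were called, 22 of the 32 lay below 0, and the median was -0.38. The ERK phosphatase genes DUSP5 (-1.04), DUSP6 (-0.87) and DUSP4 (-0.80), the ETS factors ETV5 (-0.93) and ETV1 (-0.69), the inhibitor SPRY4 (-0.73) and the ligand genes EREG (-1.35), FGF19 (-1.26) and FGF2 (-0.89) lay on that side without a call. Among these 32 genes, 8 were lower and 4 higher at an unadjusted p under 0.05, beside 7.15% and 7.41% of all genes tested. NRG1, a ligand of the ERBB receptors, stood at 3.85 and 4.67 in WT and 5.38 and 7.36 in ORC2BP8, a difference of 2.11 with no call (adjusted p = 0.146).

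PLK2, a polo-like kinase of the G1 phase that p53 induces, rose by 2.06 (SE 0.30, limma adjusted p = 0.0125). Its levels were 7.26 and 7.63 in WT and 9.97 and 9.04 in ORC2BP8, with no overlap. It was the only called gene of 18 p53 targets tested, of which 11 lay below 0 (median -0.14). GDF15, another p53 and stress target, was at 8.87 and 9.75 in WT and 8.61 and 6.60 in ORC2BP8, so that 1 ORC2BP8 array lay close to the WT arrays (difference -1.71, adjusted p = 0.219). The apoptosis gene BAX stood at 0.81, without a call. PLK2 lost its call without either WT array (highest 0.0874).

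GAL, the neuropeptide galanin, was at 7.35 and 7.65 in WT and 8.89 and 9.34 in ORC2BP8, and rose by 1.62 (SE 0.29, limma adjusted p = 0.0327). CRABP2, which carries retinoic acid to the nucleus, was at 7.72 and 8.11 in WT and 9.15 and 9.13 in ORC2BP8 (1.22, adjusted p = 0.0317). PCOLCE2, an enhancer of procollagen processing, rose by 1.23 (adjusted p = 0.0429). PKN3, a serine/threonine protein kinase, rose by 1.31 from 6.92 and 6.73 to 8.10 and 8.18 (adjusted p = 0.0180). PRAMEF22, of the PRAME family of near-identical copies on chromosome 1, stood 1.18 higher (adjusted p = 0.0180), and its signal cannot be assigned to that copy alone. The heat shock gene HSPA1A stood at 9.62 and 8.97 in WT and 10.42 and 10.51 in ORC2BP8, and its near-identical copy HSPA1B at 10.28 and 9.62 against 11.04 and 11.05. Both were called (1.17 and 1.09, adjusted p = 0.0411 and 0.0468), and their probes may not separate the copies. Without some of the arrays, among them both WT arrays and ORC2BP8 replicate 2, GAL, CRABP2, PKN3 and PRAMEF22 lost their calls (highest 0.261, 0.220, 0.157 and 0.147), and PCOLCE2 lost its call without any of the 10 (lowest 0.0514, highest 0.314).

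Of the genes of DNA replication and cell division, MCM4, CDC6 and FOXM1 rose and RBL2 fell, and most did not pass the test. MCM4, a subunit of the MCM helicase, was at 8.47 and 8.32 in WT and 9.27 and 9.64 in ORC2BP8, and rose by 1.06 (SE 0.19, limma adjusted p = 0.0317). CDC6, which works with ORC to load that helicase, was at 8.16 and 8.47 in WT and 9.25 and 9.40 in ORC2BP8, and rose by 1.01 (SE 0.18, adjusted p = 0.0301). These were 2 of 11 tested genes of origin licensing, where 0.25% of all genes tested were called higher. All 11 lay above 0 (55% of all genes tested did), with a median of 0.53, which was 0.40 within replicate 1 and 0.66 within replicate 2. MCM5 (1.14), MCM2 (1.14), MCM7 (0.75), MCM6 (0.53), CDT1 (0.25) and MCM3 (0.13) had values above 0 without a call. The arrays of the first of these, MCM5, were at 7.39 and 8.23 in WT and 8.49 and 9.41 in ORC2BP8 (adjusted p = 0.134).

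Of 22 tested genes of replication initiation and the fork, 21 lay above 0 and the median was 0.61, with 0 called by limma and 12 higher at an unadjusted p under 0.05. FEN1, the flap endonuclease of lagging strand synthesis, stood at 1.16, the checkpoint mediator CLSPN at 1.06, MCM10 at 1.02, the clamp PCNA at 0.73 and the helicase cofactor CDC45 at 0.57. In the G1/S list, 24 of 27 genes lay above 0 (median 0.46), including CDC25A (1.03), CCNE2 (0.98), E2F1 (0.92) and RRM2 (0.75), none with a call. RBL2 was the only member called. It encodes the pocket protein p130, which holds E2F targets down in resting cells, and it fell from 7.76 and 7.80 to 6.45 and 6.13, by 1.49 (SE 0.20, limma adjusted p = 0.00921). RBL2 lies on chromosome 16 among other lower genes, described with that chromosome. In the mitosis list, 34 of 38 genes lay above 0 (median 0.47). FOXM1, the transcription factor that drives mitotic genes, rose from 8.21 and 8.46 to 9.15 and 9.29, by 0.89 (SE 0.17, adjusted p = 0.0461). MYBL2, its partner, stood at 1.47 (adjusted p = 0.0567), BIRC5 at 0.85, PLK1 at 0.67 and CCNB1 at 0.63. Of the 31 checkpoint and repair genes tested, 21 lay above 0 (median 0.25) with 0 called by limma, and 7 were higher and 0 lower at an unadjusted p under 0.05.

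The medians of these 5 lists in the other mutant lines lay between 0.15 and 0.80 against the same WT arrays. Against the other mutant lines their medians were -0.01 for licensing, 0.09 for initiation and the fork, 0.07 for G1/S, 0.04 for mitosis and 0.01 for checkpoint and repair. MCM4 (-0.01), CDC6 (0.04) and FOXM1 (0.17) had no call in that comparison, and RBL2 did (-0.96, limma adjusted p = 0.0393). The comparisons with WT share the WT arrays, and how far those arrays set a common shift was not tested. MCM4 and CDC6 lost their calls without either WT, ORC1BP32 or ORC2B2 array or ORC2BP8 replicate 2 (highest 0.229 and 0.219), FOXM1 without 8 of the 10 arrays (highest 0.266), and RBL2 without either WT array or ORC2BP8 replicate 2 (highest 0.0912).

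**Figure D3:**
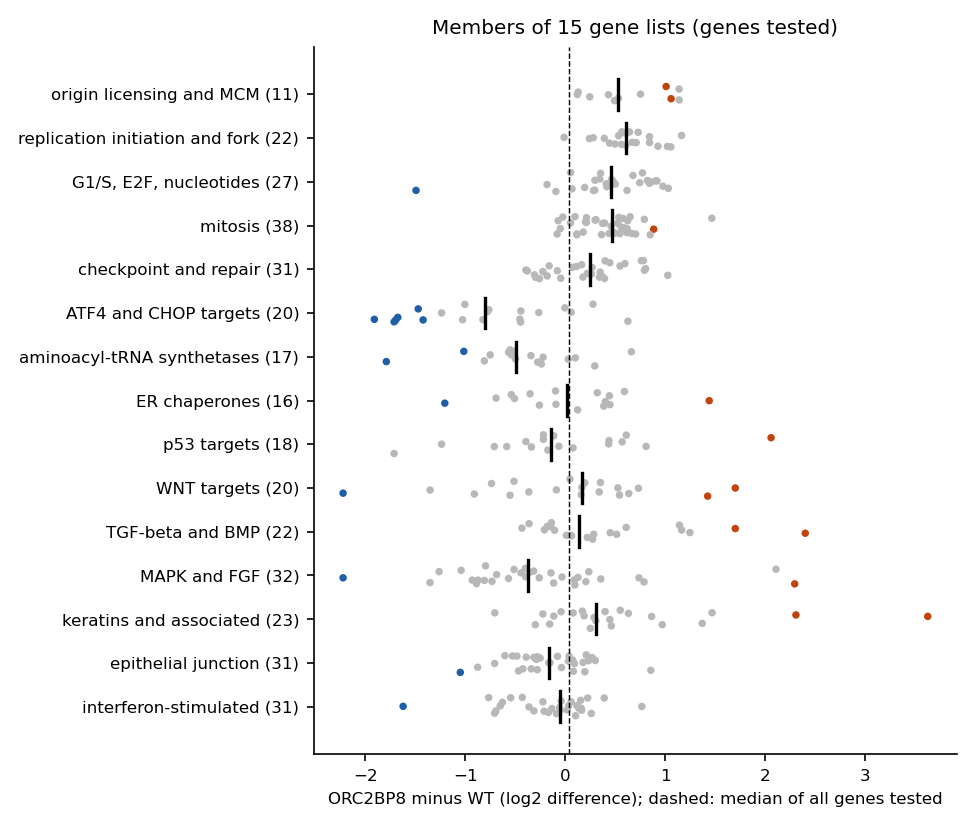
Each point is 1 tested gene of a list, with its ORC2BP8 minus WT difference (log2), in orange where called higher, in blue where called lower and in grey where not called. Black bars are list medians and the dashed line is the median of all genes tested, 0.03. The licensing and initiation lists have medians of 0.53 and 0.61, and the ATF4 and CHOP list has a median of -0.80.

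Of the lists with more than 1 tested gene, the lowest median was that of the targets of ATF4 and CHOP, transcription factors made when amino acids run short or unfolded protein accumulates. DDIT3, the gene of CHOP itself, was at 6.56 and 6.76 in WT and 4.45 and 5.05 in ORC2BP8, and fell by 1.91 (SE 0.26, limma adjusted p = 0.00921). ASNS, asparagine synthetase, was at 9.17 and 9.51 in WT and 7.49 and 7.80 in ORC2BP8, and fell by 1.70 (SE 0.27, adjusted p = 0.0180). DDIT4, an inhibitor of mTORC1, was at 8.47 and 8.57 in WT and 7.18 and 6.43 in ORC2BP8, and fell by 1.71 (SE 0.28, adjusted p = 0.0180). Each of the 3 was lower on both ORC2BP8 arrays than on either WT array. TRIB3, a pseudokinase that CHOP induces, fell by 1.67, KLHL24 by 1.47 and PCK2, the mitochondrial PEP carboxykinase, by 1.42 (adjusted p = 0.0128, 0.0112 and 0.0366).

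These 6 genes were called lower of 20 tested, where 0.685% of all genes tested were called lower. Of the 20, 17 lay below 0, 13 were lower at an unadjusted p under 0.05 and the median was -0.80, with -0.69 within replicate 1 and -0.92 within replicate 2. SESN2 (-1.24, limma adjusted p = 0.0539), STC2 (-1.03) and PHGDH (-0.78), an enzyme of serine synthesis, lay below 0 without a call. ATF4 itself was at 9.94 and 10.22 in WT and 9.42 and 9.86 in ORC2BP8 (-0.44, adjusted p = 0.330). TRIB1 stood at 0.63. The list median was -0.38 in ORC1B14, -0.65 in ORC1BP32 and -0.56 in ORC2B2 against the same WT arrays, and none of the 6 genes was called between ORC2BP8 and the other mutant lines (-0.76 to 0.07). DDIT3 lost its call against WT without WT replicate 2 (0.0908), DDIT4, TRIB3 and KLHL24 without either WT array or ORC2BP8 replicate 2 (highest 0.144, 0.110 and 0.0949), ASNS without any WT or ORC2BP8 array (0.159) and PCK2 without 8 of the 10 arrays (0.229).

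The aminoacyl-tRNA synthetases, which charge tRNAs with amino acids and include many ATF4 targets, had 2 called members. AARS1, for alanine, was at 11.29 and 11.48 in WT and 9.61 and 9.59 in ORC2BP8, and fell by 1.79 (SE 0.16, limma adjusted p = 0.00152). SARS1, for serine, was at 8.98 and 9.22 in WT and 7.94 and 8.23 in ORC2BP8, and fell by 1.01 (SE 0.18, adjusted p = 0.0322). Of 17 tested, 13 lay below 0 and the median was -0.50, with CARS1 at -0.81 and GARS1 at -0.75 next, while HARS1 stood at 0.66. AARS1 lies on chromosome 16 among other lower genes. It stayed called whichever of the 10 arrays was left out, and SARS1 lost its call without 8 of them (highest 0.225). Chaperones and other genes of the endoplasmic reticulum were split, with 8 of 16 above 0 and a median of 0.02. SDF2L1, of an HSP40 chaperone complex, rose from 5.74 and 5.79 to 7.07 and 7.35 (1.44, adjusted p = 0.00921), and SEL1L, of the complex that exports misfolded proteins, fell from 8.87 and 9.19 to 7.98 and 7.67 (-1.20, adjusted p = 0.0363). SDF2L1 and SEL1L lost their calls without either WT array or ORC2BP8 replicate 2 (highest 0.0843 and 0.255), and SEL1L also without replicate 1 or 2 of ORC1BP32 or ORC2B2.

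ATF4 paired with a C/EBP factor binds a composite DNA element. Its core TGATGNAA was searched on both strands of the 250 bases before each gene start in RefSeq (GRCh38.p14), at the first start listed for a symbol. Its letters can overlap those of the TCF/LEF site CTTTGATN, another of the 7 motifs searched. It was found in 3 of the 61 called lower genes with a promoter in the table (4.92%), in 0 of 19 called higher, in 111 of all 8245 genes tested (1.35%) and in 870 of all 27305 promoters (3.19%). Among the ATF4 and CHOP list 2 of 15 promoters held it (13.3%). The 3 matches are shown because they sit before genes that fell, AARS1 and ASNS among them, with the match in capitals and 20 bases on each side, read in the direction of the gene.
ASNS: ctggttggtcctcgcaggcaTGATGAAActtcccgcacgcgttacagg
AARS1: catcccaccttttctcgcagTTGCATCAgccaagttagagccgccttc
IL20RB: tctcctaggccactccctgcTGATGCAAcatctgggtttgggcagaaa
The ASNS stretch is chr7:97872449-97872496 on the minus strand, with the match starting 68 bases before the gene start. In AARS1, chr16:70289666-70289713 on the minus strand, the element is on the opposite strand, 187 bases before the start. In IL20RB, chr3:136957887-136957934 on the plus strand, it lies 76 bases before the start. IL20RB, a subunit of cytokine receptors, fell from 6.85 and 7.03 to 5.78 and 5.65, by 1.22 (limma adjusted p = 0.0128). The motif is a match of letters, and binding was not measured. In the windows of DDIT3, TRIB3, DDIT4, KLHL24 and PCK2 these letters were not found.

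Among the other motifs, the CHR element TTTGAA, bound by the complexes that time mitotic genes, was in 20 of 33 promoters of the mitosis list (60.6%) and in 3704 of all 27305 (13.6%). The E2F letters TTTCCCGC were in 3 of 9 promoters of the licensing list (33.3%) and in 1.42% of all. These shares describe the lists and not ORC2BP8. None of the 19 called higher genes with a promoter held any of the 7 motifs searched (0 of 19 for each). Among all genes tested the shares ran from 0.146% for the rarest motif to 8.38% for the CHR element. With shares this low, 0 of 19 is by itself no result about the higher genes. The CHR element was in 7 of the 61 called lower genes with a promoter (11.5%).

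SYT1, a synaptotagmin that senses calcium in vesicle release, had the lowest difference. It was at 7.71 and 7.90 in WT and 5.03 and 4.76 in ORC2BP8, and fell by 2.91 (SE 0.33, limma adjusted p = 0.00516). It was the only called gene of 32 tested in the list of vesicle release, of which 16 lay above 0 and whose median was 0.00. SYTL2 stood at 1.07 without a call. SCG2, secretogranin II of secretory granules, was at 6.11 and 6.32 in WT and 3.71 and 3.45 in ORC2BP8, and fell by 2.64 (adjusted p = 0.0118), down to below the array medians. SYT1 stayed called whichever of the 10 arrays was left out, and SCG2 lost its call without either WT array or ORC2BP8 replicate 2 (highest 0.110).

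ADGRF1, an adhesion G protein-coupled receptor, was at 7.36 and 6.76 in WT and 4.75 and 4.07 in ORC2BP8, and fell by 2.65 (SE 0.30, limma adjusted p = 0.00516). It was as low in ORC1B14, ORC1BP32 and ORC2B2, at -2.48, -2.40 and -2.70 against the same WT arrays. ADGRG6, of the same family, fell by 0.98 from 9.61 and 9.81 to 8.92 and 8.54 (adjusted p = 0.0468). Of 8 adhesion G protein-coupled receptors tested, these 2 were called lower (0.685% of all genes tested were) and 7 lay below 0 (4857 of all 10797), with a median of -0.54. CNTN1, contactin 1, a neural adhesion protein, was at 5.79 and 6.01 in WT and 4.07 and 3.68 in ORC2BP8, and fell by 2.02 (SE 0.20, adjusted p = 0.00274). ANTXR2, a receptor of the basement membrane and of anthrax toxin, fell from 8.53 and 7.87 to 6.52 and 6.20, by 1.84 (adjusted p = 0.0103). These 2 were called of 12 tested genes of the adhesion and integrin list, of which 7 lay above 0 (median 0.05). SLIT2, a secreted guidance cue, was at 5.52 and 5.95 in WT and 4.23 and 3.45 in ORC2BP8, and fell by 1.90 (adjusted p = 0.0103). ESRP1, a splicing factor of epithelial cells, fell by 1.05 (from 10.60 and 10.34 to 9.60 and 9.24, adjusted p = 0.0485), as the only called gene of 31 epithelial junction genes (12 above 0, median -0.16). ADGRF1 and CNTN1 stayed called whichever of the 10 arrays was left out. ADGRG6 lost its call without 7 arrays (highest 0.317), ESRP1 without 7 (0.333), ANTXR2 without WT replicate 1 or ORC2BP8 replicate 2 (0.0884) and SLIT2 without WT replicate 2 or ORC2BP8 replicate 2 (0.0949).

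LURAP1L, an activator of NF-kB signalling, was at 6.73 and 7.88 in WT and 4.65 and 4.68 in ORC2BP8, and fell by 2.64 (SE 0.33, limma adjusted p = 0.00794). The esterase gene AADAC was at 5.76 and 7.18 in WT and 4.52 and 4.10 in ORC2BP8 (-2.16, adjusted p = 0.0468), and its pseudogene AADACP1 was at 5.40 and 6.74 in WT and 3.54 and 3.93 in ORC2BP8 (-2.33, adjusted p = 0.0283). In all 3 genes WT replicate 2 lay more than 1 above WT replicate 1, and AADAC and AADACP1 may share signal through similar sequence. SLFN5, of the interferon-induced Schlafen family, fell from 9.64 and 9.99 to 8.07 and 7.39 (-2.09, adjusted p = 0.00857), and the helicase DDX60L from 8.99 and 9.07 to 7.73 and 7.08, by 1.62 (adjusted p = 0.0322). Against WT, SLFN5 stood at -1.85, -1.24 and -1.91 in ORC1B14, ORC1BP32 and ORC2B2, and DDX60L at -1.64, -1.25 and -0.97. Of 31 interferon-stimulated genes tested, DDX60L was the only called gene and 13 lay above 0 (median -0.06, with 0.12 within replicate 1 and -0.30 within replicate 2). KLF9 and KLF7, Kruppel-like transcription factors, fell by 1.57 and 1.52 (limma adjusted p = 0.0128 and 0.0484) of 20 tested in their family, 8 of them above 0. LURAP1L lost its call without ORC2BP8 replicate 2 (0.0676), SLFN5 without WT or ORC2BP8 replicate 2 (0.0833), KLF9 without either WT array or ORC2BP8 replicate 2 (0.112), KLF7 without 5 arrays (0.341), AADACP1 without 4 (0.147), and AADAC and DDX60L without 7 each (0.329 and 0.255).

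Of the called genes, 4 are microRNA loci, whose probe sets read the transcript of the locus and not the mature microRNA alone. MIR4527, on chromosome 18, was at 2.45 and 2.36 in WT, below the array medians, and at 5.78 and 5.02 in ORC2BP8, and rose by 2.99 (SE 0.25, limma adjusted p = 0.00136). It passed the filter on dim probe sets through its ORC2BP8 arrays alone, so a difference was a condition of its being tested, and it was not tested when either of these was left out. MIR3143, on chromosome 6, rose from 7.95 and 7.93 to 9.10 and 9.73 (1.48, adjusted p = 0.0135). MIR4441, on chromosome 2, fell from 7.13 and 6.63 to 5.37 and 4.67 (-1.86, adjusted p = 0.0468), and MIR616, on chromosome 12, from a mean of 4.15 (n = 2) to 2.94 (n = 2) (-1.22, adjusted p = 0.0301). MIR616 passed the filter on dim probe sets through its WT arrays alone, so a difference from WT was a condition of its being tested. It stood at -1.41, -1.04 and -1.12 against WT in ORC1B14, ORC1BP32 and ORC2B2. A mature microRNA recognises targets mainly through its seed, bases 2 to 8 from the 5′ end, shown in capitals, and no seed is shared among these. The sequences are those of RefSeq (GRCh38.p14), which lists a mature form for 3 of the 4 loci.
hsa-miR-4527: uGGUCUGCaaagagaugacugu
hsa-miR-4441: aCAGGGAGgagauugua
hsa-miR-616-5p: aCUCAAAAcccuucagugacuu
hsa-miR-616-3p: aGUCAUUGgaggguuugagcag
They lie at chr18:47380503-47380524 on the plus strand (miR-4527), chr2:239085828-239085844 on the minus strand (miR-4441), and chr12:57519223-57519244 and chr12:57519183-57519204 on the minus strand (miR-616-5p and miR-616-3p). MIR616 lies within DDIT3, which fell by 1.91. MIR4441 lies within HDAC4, which stood at -0.45 without a call (adjusted p = 0.443). MIR4527 lies within its host transcript MIR4527HG, which was not tested. SMAD7 is a near neighbour on chromosome 18, and the tested genes SMAD2 (-0.18) and CTIF (-0.62) between them had no call. MIR3143 lost its call without either WT array or ORC2BP8 replicate 2 (highest 0.110), and MIR4441 without 5 arrays (0.341).

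ORC2BP8 was then set against the mean of ORC1B14, ORC1BP32 and ORC2B2, a comparison that does not use WT as its control. There 51 genes were called (0.472%), 14 higher (0.13%) and 37 lower (0.343%), at a limma adjusted p under 0.05, and 739 had an unadjusted p under 0.05 (6.84%). Of these 51, 26 were also called against WT (26 of the 101), 6 higher and 20 lower in both, and 25 were not. Both comparisons use the same ORC2BP8 arrays.

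In MIR4527, SULF2 and SMAD7, the ORC2BP8 arrays stood above the other 8 arrays. MIR4527 lay between 2.23 and 2.74 on the 6 other mutant arrays, 3.01 lower on average, and since it entered the test only through its ORC2BP8 arrays this is given as a description. SULF2 lay between 3.75 and 5.00 on them, a difference of 2.23 (limma adjusted p = 0.00446), and of 0.96 averaged over its 2 probe sets, still with a call. SMAD7 lay between 4.82 and 5.65, a difference of 1.71 (adjusted p = 0.00986). In MLKL, the effector of necroptosis, the ORC2BP8 arrays stood below all the others, at 4.33 and 4.84. WT was at 6.41 and 6.79, and the other mutant arrays lay between 6.41 and 6.96, so that the difference was -2.02 from WT (adjusted p = 0.00794) and -2.19 from the other lines (adjusted p = 0.00275). CRNDE, a long noncoding RNA raised in colorectal tumours, was at 5.70 and 6.90 in WT, 5.12 to 6.20 on the other mutant arrays and 3.74 and 3.86 in ORC2BP8, below the array medians. It fell by 2.50 against WT and 1.83 against the other lines (adjusted p = 0.00921 and 0.0178). LIF, a cytokine of the interleukin-6 family, was at 8.37 and 7.25 in WT, 7.58 to 8.54 on the other mutant arrays and 6.43 and 5.32 in ORC2BP8. Its difference was -2.06 from the other lines (adjusted p = 0.0393) and -1.93 from WT (adjusted p = 0.0785).

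In DSC3, PCDH7 and EDN1 the ORC2BP8 mean lay nearer to WT than that of each other mutant line. DSC3, a desmosomal cadherin, was at 6.64 and 7.14 in WT and 6.64 and 6.46 in ORC2BP8, and between 3.80 and 5.90 on the other mutant arrays (ORC2BP8 higher by 1.87, SE 0.20, limma adjusted p = 0.00324). PCDH7, a protocadherin, was at 5.60 and 5.91 in WT, 5.09 and 5.62 in ORC2BP8 and between 3.64 and 4.56 on the others (1.50, adjusted p = 0.0222). EDN1, endothelin 1, was at 4.29 and 4.71 in WT, 5.00 and 3.93 in ORC2BP8 and between 5.14 and 7.13 on the others (-1.92, adjusted p = 0.0411). Against WT these 3 genes had no call in ORC2BP8 (-0.34, -0.40 and -0.04). In PEG10, RNF182 and MT1F the ORC2BP8 arrays lay on one side of both WT arrays and the other mutant arrays on the opposite side. PEG10, an imprinted gene derived from a retrotransposon, was at 7.10 and 6.96 in ORC2BP8, 6.54 and 6.65 in WT and between 5.28 and 6.25 on the others (1.30, adjusted p = 0.00446). RNF182, a ubiquitin ligase, was at 6.82 and 6.33 in ORC2BP8, 7.20 and 6.99 in WT and between 7.95 and 8.64 on the others (-1.70, adjusted p = 0.00652). MT1F, a metal-binding metallothionein, was at 5.35 and 4.70 in ORC2BP8, 5.73 and 6.04 in WT and between 6.48 and 7.03 on the others (-1.76, adjusted p = 0.00446). The 6 metallothioneins tested, all on chromosome 16, had a median of -0.82 against the other lines and -0.09 against WT.

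**Figure D4:**
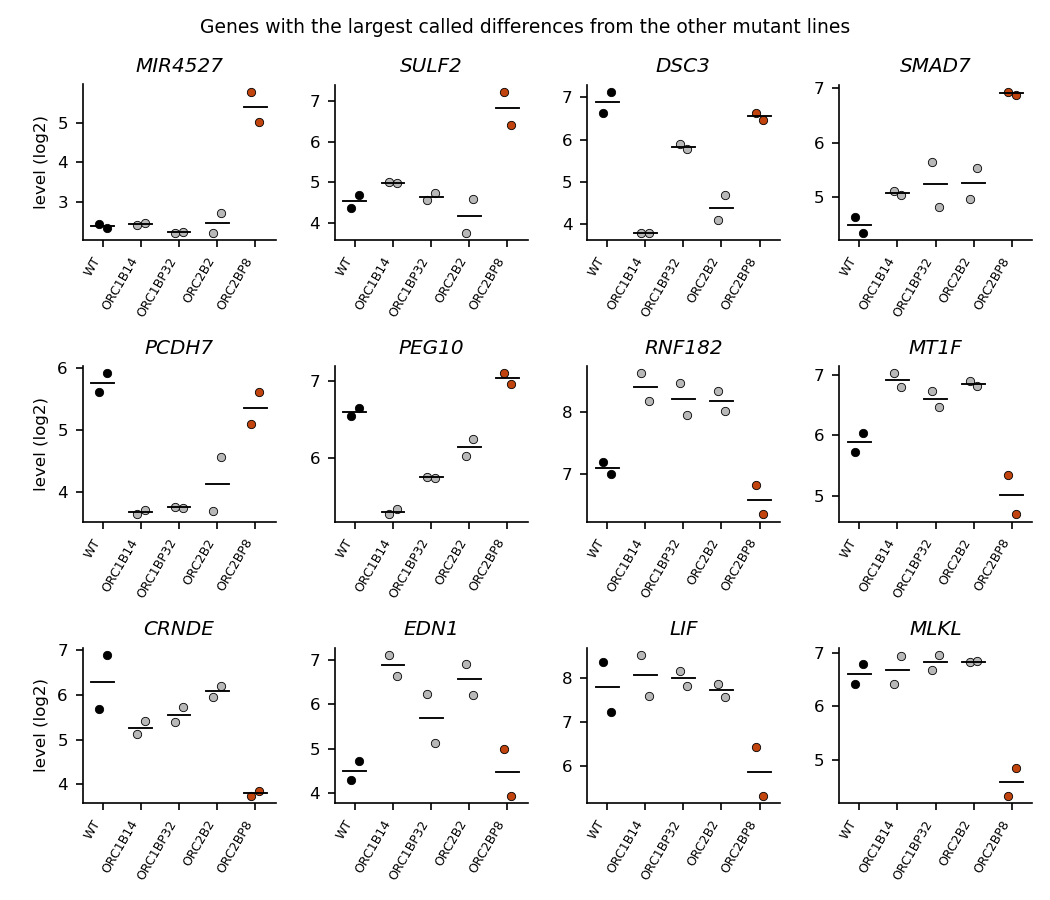
Log2 level on each of the 10 arrays by line for the 6 highest and 6 lowest genes called between ORC2BP8 (orange) and the other 3 mutant lines (grey), with WT in black and bars at line means. The 2 ORC2BP8 arrays lie above or below all 6 grey arrays in each panel, and in MIR4527, SULF2, SMAD7 and PEG10 they also lie above both WT arrays.

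In this comparison MLKL stayed called whichever of the 10 arrays was left out (highest 0.0402). SMAD7, PEG10 and DSC3 lost their calls without either ORC2BP8 array (highest limma adjusted p 0.112, 0.0733 and 0.0640), SULF2 without ORC2BP8 replicate 1 (0.0733), and RNF182 and MT1F without ORC2BP8 replicate 2 (0.101 and 0.0640). CRNDE lost its call without either ORC2BP8 array or ORC1BP32 replicate 2 (0.179), and PCDH7 without either ORC2BP8 or ORC1BP32 array (0.270). LIF lost its call without 7 of the 10 arrays (0.441) and EDN1 without 9 (0.502).

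Some of the genes that fell lay close together on chromosome 16. Of the 74 lower genes 16 are on it, 3.04% of its 526 tested genes, where 0.685% of all genes tested were called lower, and none of its genes was called higher. Runs were built from windows of 25 neighbouring tested genes whose median difference reached 0.3 in size within both replicate numbers, and 2 runs of lower genes lay on this chromosome. The first, of 63 tested genes from LINC02184 to CFAP263, had a median of -0.35 (-0.29 within replicate 1, -0.36 within replicate 2). The second, of 86 tested genes from GFOD2 to HSDL1, had a median of -0.45 (-0.50 and -0.36). Against WT the other 3 mutant lines had medians between -0.01 and 0.16 in these runs, and the 377 tested chromosome 16 genes outside the runs had a median of 0.04 in ORC2BP8. The runs were chosen by low values in ORC2BP8, so its low medians within them and the higher one outside follow in part from that choice.

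Each run held 7 of the lower genes. In the first these were CNEP1R1, CHD9, RBL2, AKTIP, CRNDE, BBS2 and RSPRY1, and in the second AARS1, IST1, GLG1, MLKL, WDR59, GABARAPL2 and MON1B. CHD9, a chromatin remodeller, fell from 8.35 and 8.49 to 6.94 and 7.02, by 1.44 (limma adjusted p = 0.00921). MON1B, of the complex that matures endosomes, fell from 6.63 and 6.60 to 4.99 and 5.21, by 1.52 (adjusted p = 0.00794). GLG1, a Golgi glycoprotein, fell from 10.75 and 10.63 to 9.69 and 9.11, by 1.29 (adjusted p = 0.0130). Of the lower genes on this chromosome only MOSMO (-1.38) and FHOD1 (-1.43) lay outside the runs. In ORC1B14, ORC1BP32 and ORC2B2 against WT, MOSMO stood at -1.08, -0.63 and -0.94, and FHOD1 at -0.09, 0.01 and -0.01. Not all genes of the runs were low: in the first, 38 of 63 lay below 0 within both replicates and 11 above 0 within both, and in the second 65 of 86 lay below and 3 above. Against the other mutant lines, 23 of the 37 lower genes were on chromosome 16, 22 of them in the runs. DNA copy number was not measured here, and 60 of the 74 genes lower than WT lie outside these runs. The genes of this paragraph beyond RBL2, CRNDE, AARS1 and MLKL were chosen after their values were seen.

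**Figure D5:**
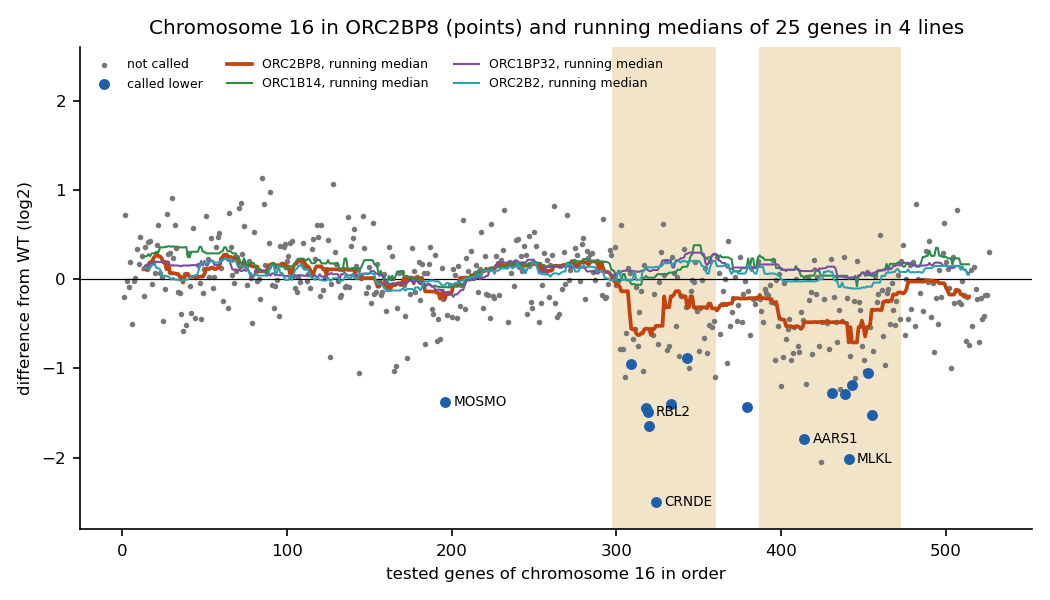
ORC2BP8 minus WT difference (log2) of the 526 tested genes of chromosome 16 in their order along it, with called lower genes in blue, the 2 runs shaded and running medians of 25 genes for each of the 4 mutant lines. The shaded runs were chosen by their low ORC2BP8 median, so its drop within them follows from that choice. They hold 14 of the 16 called genes, and the ORC2BP8 median lies below the medians of ORC1B14, ORC1BP32 and ORC2B2 there.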

How the data were processed

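Total RNA of 5 HCT116 lines, extracted with Trizol, was hybridized to 10 Affymetrix arrays, 2 a line, per the labels' protocols. For each array the authors deposited a log2 level per probe set, made with Affymetrix Expression Console (no version) per the submitters' processing notes. The log base is not stated and was read from the range of the values (1.45 to 13.7), on which the fold changes rest. How the arrays were normalized is not given in the sources used here. The values were used as deposited.

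Probe sets were named through the platform's probe-gene table and matched to RefSeq by gene ID (16098 of 16098). Probe sets under the array median on 9 or more of the 10 arrays were left out, and the brightest remaining one stood for a gene. The test was that of limma 3.58.1 in R 4.3.3 (lmFit on 5 line means, eBayes with an intensity trend, all 10 arrays, 5 residual and 5.83 prior degrees of freedom), two-sided, with Benjamini-Hochberg adjustment over 10797 genes and a threshold of 0.05. The fit was tested on simulated data with known changes.

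Named genes are the 15 highest and 15 lowest called against WT, the called members of 40 gene lists, the 6 highest and 6 lowest called against the other mutant lines and the ends of runs. Others were chosen after their values were seen: HSPA1A, HSPA1B, MIR616, IL20RB, SYK, LINC00707, ANKRD22 and those marked in the text. Gene lists, members and rules were chosen with earlier results of these data known. Lists are described by counts and medians, with no test. Correlations of replicate deviations between lines were all positive, from 0.0812 to 0.568, with 0.363 between WT and ORC2BP8. They rest on only 2 replicate numbers, so the replicate number was a block only as an alternative. In the main fit, any shift shared by the arrays of a replicate number is therefore part of the error. Other alternatives were the array scaling, the filter, the probe set per gene, the trend, the arrays in the fit and leaving out each array. The number of arrays limits the precision.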

Additional observations from a re-analysis of the deposited data

Results flagged for a closer look

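For 33 genes, the difference of ORC2BP8 from the mean of the other 3 mutant lines passed the limma test (Benjamini-Hochberg adjusted p under 0.05). They are the genes called in that comparison that were also called against WT or are named by the fixed rule. On the log2 scale the 9 higher values were 3.01 for MIR4527, 2.23 for SULF2, 1.87 for DSC3, 1.71 for SMAD7, 1.50 for PCDH7, 1.30 for PEG10, 1.25 for BAMBI, 0.97 for TMEM145 and 0.89 for SYK. MIR4527 and SYK entered the test only through their ORC2BP8 arrays, so a difference was a condition of their being tested. The first 12 lower values were -2.19 for MLKL, -2.06 for LIF, -1.92 for EDN1, -1.83 for CRNDE, -1.76 for MT1F, -1.70 for RNF182, -1.58 for CNTN1, -1.57 for ZNF614, -1.53 for MON1B, -1.40 for FHOD1, -1.38 for GOLT1A and -1.36 for CAMK2D. The other 12 were -1.18 for BBS2, -1.17 for SLIT2, -1.14 for AKTIP, -1.12 for CHD9, -1.08 for AARS1, -1.08 for IST1, -0.99 for BEND6, -0.98 for CNEP1R1, -0.96 for RBL2, -0.91 for GLG1, -0.89 for RSPRY1 and -0.59 for ERRFI1. Of these 24 lower genes 14 lie on chromosome 16: MLKL, CRNDE, MT1F, MON1B, FHOD1, BBS2, AKTIP, CHD9, AARS1, IST1, CNEP1R1, RBL2, GLG1 and RSPRY1.

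Probe sets with no gene name take no part in the comparisons of the report. A further fit tested named and unnamed probe sets together, 29383 in all. Of the 17829 unnamed probe sets in it, 4 were higher and 16 lower in ORC2BP8 than in WT.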

How the results depend on the processing

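The 101 genes called against WT became 18 with only the 4 arrays compared and 37 of 29383 when all probe sets, unnamed ones included, were tested, an alternative chosen after seeing the data. The 51 called against the other mutant lines became 32 without the filter on dim probe sets and 14 with all probe sets. Leaving out 1 array gave 13 (without WT replicate 2) to 161 (without ORC2BP8 replicate 1) against WT, with 29 without WT replicate 1, 18 without ORC2BP8 replicate 2, and 57 and 55 without ORC1BP32 replicates 1 and 2. Against the other lines it gave 4 (without ORC2BP8 replicate 2) to 38, with 8 without ORC2BP8 replicate 1, 24 and 18 without ORC1BP32 replicates 1 and 2, 22 without ORC2B2 replicate 1 and 32 without ORC1B14 replicate 2. The causes were not tested. EDN1 against WT, without a call at -0.04, ranged from -0.57 (without ORC2BP8 replicate 1) to 0.50 (without ORC2BP8 replicate 2), with 0.18 without WT replicate 2. Quantile normalization, centring, the stricter filter, the mean over probe sets and no intensity trend kept both counts within 1.5 times. The replicate number shows no pairing in the labels beyond the number, and the replicate block gave 402 calls (178 higher, 224 lower) against WT and 136 against the other lines, including all 101 and all 51. LIF against WT (-1.93, limma adjusted p = 0.0785) is called with the block. List medians moved by more than the spread between replicates in 58 alternatives and not in 644. The 2 arrays a line limit the precision of every value.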

Other observations

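Gene groups outside the comparisons above held few or no calls in ORC2BP8 against WT. Of 31 tested genes of sterol and fatty acid synthesis, limma called 0, while 7 were higher and 3 lower at an unadjusted p under 0.05. SQLE, squalene epoxidase, stood at 1.15, ACAT2 at 0.90 and DHCR7 at 0.76, and TM7SF2 at -0.96 and INSIG2 at -0.81 (log2 differences). The 22 tested genes of MYC and ribosome biogenesis had a median of 0.18 with 0 called (3 higher and 0 lower unadjusted), and MYC itself was at -0.51. In the list of heterochromatin and Polycomb genes, 0 of 34 were called (4 higher and 2 lower unadjusted). The lowest was the methyltransferase EZH1 at -1.12 (limma adjusted p = 0.0541), and SUV39H1 was the highest at 0.65. Among 23 centrosome genes, 0 were called (1 higher and 1 lower unadjusted) and the median was 0.03. For 12 genes of oxidative phosphorylation the median was 0.12, with 0 called and 0 past an unadjusted p under 0.05.

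Of 12 mesenchymal genes tested, 0 were called (1 higher and 0 lower unadjusted). FN1, fibronectin, was the highest at 1.44 (limma adjusted p = 0.0756) and VIM, vimentin, stood at -0.14. For 17 genes of NF-kB and inflammation the median was -0.20, with LIF the lowest and 0 called (1 higher and 2 lower unadjusted). Of 18 hypoxia and glycolysis genes 0 were called (2 higher and 2 lower unadjusted), with NDRG1 at -1.03.

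Runs of neighbouring genes built as on chromosome 16 were also present elsewhere. On chromosome 4, 39 genes from PAPSS1 to HSPA4L had a median of -0.28, with CAMK2D and USP53 called lower. The same genes had -0.24 in ORC1B14, -0.14 in ORC1BP32 and -0.01 in ORC2B2. On chromosome 17, 33 genes from ORMDL3 to KRT19, which include CDC6 and KRTAP2-3, had 0.34 in ORC2BP8. They had 0.33 in ORC2B2, 0.17 in ORC1B14 and 0.14 in ORC1BP32. On chromosome 19, 44 genes from CDC34 to TCF3 had 0.32, and 0.24 to 0.40 in the other lines. These chromosome 17 and 19 runs had medians of 0.06 and -0.02 against the other mutant lines, and the chromosome 16 runs had -0.68 and -0.54.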
